A study of Mus musculus with 2 samples.

Results

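The transcripts of the AP-1 subunits Fos, Fosb, Fosl1, Fosl2, Jun, Junb and Jund, of the small Maf factors Maff and Mafk, and of Batf3 were followed in the mouse cochlea after noise. Members were chosen by name: every non-control probe whose gene name on the array was one of these 10 was taken, which gave 15 probes among the 56605 probes, and 10 genes among the 37074 gene names, of the array. Both samples were total RNA from cochlear tissue of female C57BL/6 mice, an inbred laboratory strain, 7 weeks old. The noise sample was taken 3 hours after an intense noise exposure that lasted 2 hours, and the baseline sample came from mice that had received none. No genetic modification is named for either sample. The labels do not give the number of mice in a sample, the sound level or the clock hour of dissection. Each sample was labelled with Cy3, a green fluorescent dye, and read on 1 Agilent expression array. Each group therefore had 1 array and no replicate, so all differences are between 2 samples, none was tested, and a size of 2-fold stands in place of a threshold on p.

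AP-1 is a family of transcription factors built as pairs. Fos proteins pair with Jun proteins through a leucine zipper, and the pair binds a short palindromic DNA element. Small Maf proteins have the same basic leucine zipper but no activation domain of their own, and pair with themselves, with CNC-type factors such as Nrf2 or with the Bach repressors on a longer element. Many of these genes belong to the immediate early genes, which are transcribed within minutes of a stimulus from factors already present in the cell, and whose messenger RNAs are short-lived.

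The promoter sequences of the members show which of the short elements used by stimulus-responsive factors stand near each start site, and they are printed here for the members that the results turn on. Promoter windows of RefSeq (GRCm38.p6), from 250 bases before to 50 bases after the start site, were found for 9 of the 10 members, in 11 windows; Fosl1 was matched to no window. The pieces below lie upstream of the start site and run 5′ to 3′. The first capitals in Fos mark the half-site TGACG of the cyclic AMP response element and the second the TATA box TATAAA. The capitals in Jun mark TGACATCA, an AP-1-like element of the Jun promoter.
Fos, chr12:85473770-85473889, plus strand: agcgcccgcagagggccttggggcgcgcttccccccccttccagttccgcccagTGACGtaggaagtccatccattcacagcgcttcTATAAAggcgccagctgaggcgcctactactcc
Jun, chr4:95052223-95052342, minus strand: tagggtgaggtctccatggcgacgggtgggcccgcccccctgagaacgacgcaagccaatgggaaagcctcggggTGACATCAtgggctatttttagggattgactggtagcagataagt

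Of the other members, those with a match to one of these elements are shown. The 30 bases around the matching letters are given, so that the flanks can be compared. The windows of Jund, Fosl2 and Batf3 held no match and are not printed. In Maff the capitals mark the complete palindrome TGACGTCA in the first piece and TGACATCA in the second, which comes from a separate start site of the same gene. In Fosb, Junb and Mafk they mark the half-site TGACG.
Maff, chr15:79347480-79347509, plus strand: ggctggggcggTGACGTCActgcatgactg
Maff, chr15:79348346-79348375, plus strand: ctggagccatgTGACATCAgtgtttgttcc
Fosb, chr7:19310087-19310116, minus strand: ggagttgcgggTGACGcaagcgcgggggcg
Junb, chr8:84978836-84978865, minus strand: cttcctgacagTGACGcgagccgcctcctc
Mafk, chr5:139791484-139791513, plus strand: gggcggggcggTGACGcgcttcgacgcgcg

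Both strands were searched for each element except the TATA box, which was searched on the gene's own strand. The half-site TGACG was present in 6 of the 11 windows, belonging to 5 of the 9 members (Fos, Fosb, Junb, Maff and Mafk), against 20.8% of all 32851 windows of the table. Every TGACGTCA also contains TGACG, so these counts overlap. The complete TGACGTCA was found in 1 member window, that of Maff, where it began 29 bases before the start site, against 1.79% of all windows. TGACATCA was found in 2 windows, those of Jun and Maff, at 45 bases before the start in both, against 3.62% of all windows. TATAAA was found in 2 windows, 33 bases before the start of Fos and beginning at the start site of Junb, against 8.32% of all windows. The AP-1 element TGANTCA, present in 7.81% of windows, and the CArG box bound by serum response factor, present in 1.63%, were matched in none of the 11 member windows. These are matches of letters within a short window, and the serum response element known for Fos lies farther upstream than the window reaches.

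The arrays were of like brightness. The 75th percentile of the processed signal, the background-subtracted brightness of a spot, was 316 after noise and 278 at baseline. Levels below are this signal, or the signal divided by its array's 75th percentile, called the scaled level. The scanner software called 75.3% (noise) and 75.2% (baseline) of probes well above background, and no spot was saturated. The same slide, read in 1 scan, held both arrays, so neither slide nor scan separated the groups. Each member probe was printed in 1 spot, so the error given with a signal is the scanner software's own estimate for that spot. For comparison, 300 probes were printed several times. Their median spot-to-spot spread, combined over the 2 arrays, came to a standard deviation of 0.069 for a log2 ratio. It was 0.084 at signals of 500 to 5000 and 0.113 at 50 to 500, each from at most 22 probes per array. The ratios of single probes scattered around their gene's mean ratio with a standard deviation of 0.27 over 9348 genes. The cochlear identity of both samples was checked with 20 inner ear markers. All 20 were well above background on both arrays by at least 1 probe, among them Coch, an extracellular protein of the spiral ligament, with signals of 20264 after noise and 14059 at baseline, and Otoa, a protein of the sensory epithelium and its overlying membrane, with 256 and 149. Slc26a5 was little above background, with signals of 5.62 after noise and 8.35 at baseline from 1 of its 2 probes.

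Of the 15 member probes, 12 were well above background on both arrays, 1 on the noise array alone and 2 on neither. These 12 probes gave a log2 ratio (noise minus baseline) for 9 of the 10 genes. The ratio was above 0 for 8 of the 9, and 3 were at least 2-fold higher after noise: Maff, Fosb and Fos. None was at least 2-fold lower. Measured likewise, 26528 genes had a ratio, of which 0.611% (162 genes) were higher by 2-fold or more, 1.25% (332 genes) were lower by as much, and 47.5% lay above 0. The median log2 ratio of the 9 members was 0.42, and that of all genes was -0.01, with a central 95% from -0.77 to 0.63. The members were chosen with earlier results of these data known, so their counts and median are descriptions and support no direction. The count of 3 depended on how background was treated. With the normexp model of background only Maff stayed past 2-fold, and over all genes 56 were higher and 74 lower. When arrays were scaled on spike-in probes instead, 340 genes were higher and 189 lower, all genes together had a median of 0.20, and Junb joined the 3 members past 2-fold.

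**Figure D1:**
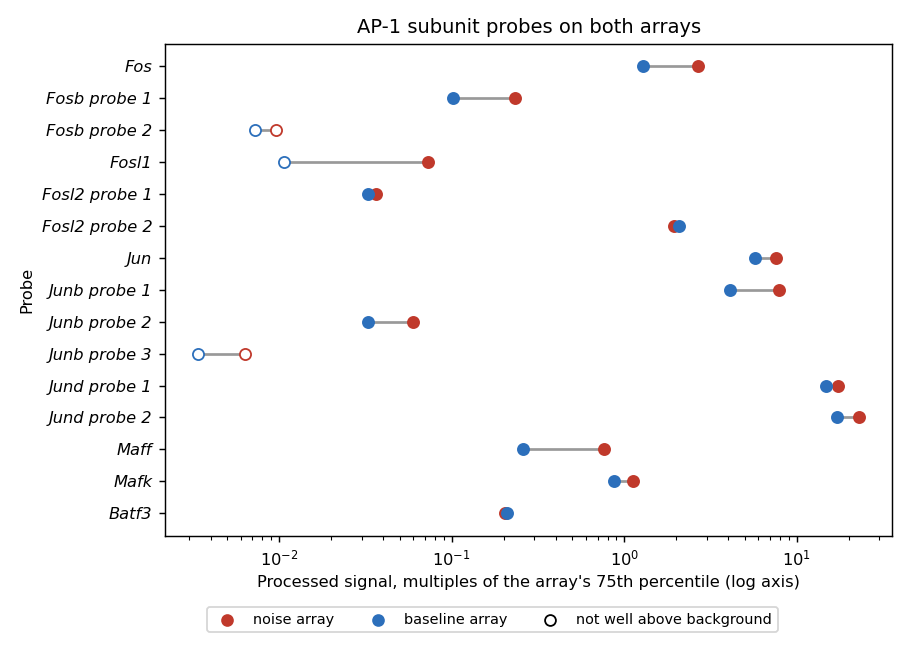
Scaled level of each of the 15 member probes (rows) on the noise array (red) and the baseline array (blue), as multiples of the array's 75th percentile on a log axis; open circles were not well above background. The red point lies to the right of the blue one for all probes except the second Fosl2 probe and Batf3, and levels can be compared only within a row.

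Fos, the founding member and a partner of Jun in most stimulated cells, had a signal of 845 ± 84.5 after noise and 356 ± 35.6 at baseline. Its probe covers chr12:86818118-86818177 on the plus strand (mm9). The scaled levels were 2.68 and 1.28, so that Fos was 2.09-fold higher after noise, a log2 ratio of 1.07 ± 0.20. Fos stood just past 2-fold, and 99.5% of the measured genes had a lower or equal ratio. With the normexp background its log2 ratio was 0.99, just under 2-fold.

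Fosb, a Fos paralog that is induced with similar speed, was measured by 1 of its 2 probes. That probe (chr7:19888168-19888227, minus strand) gave signals of 73.9 ± 7.48 after noise and 28.4 ± 3.06 at baseline. The scaled levels of 0.234 and 0.102 made Fosb 2.29-fold higher, with a log2 ratio of 1.20 ± 0.21. The other probe, 1978 bases away, had signals of 3.02 and 2.00, and neither was well above background. Fosb was the member whose size depended most on the processing: its log2 ratio was 0.43 with the normexp background, 0.73 without background subtraction and 0.80 when its dim probe was averaged in. It was higher after noise under each of these settings, though below 2-fold.

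Fosl1 encodes Fra-1, a Fos-related protein that lacks the strong activation domain of Fos and is best known from migrating and wounded epithelium. Its single probe (chr19:5455496-5455555, plus strand) had a signal of 23.0 ± 2.51 after noise and 2.99 ± 1.02 at baseline, and only the first was well above background. The lowest signal that counted as well above background on the baseline array was 4.35. Set against it, each on its array's scale, Fosl1 was at least 4.66-fold higher after noise. This bound holds for the background-subtracted signal only, and it was not computed under other treatments of background. The value of 4.66 was the 4th highest among 619 genes well above background on the noise array alone. Of these, 5.33% (33 genes) had an at-least fold of 2 or more. Being measured on that array alone is what placed a gene in this set, so the rank supports no direction. At baseline alone, 547 genes were well above background. Fosl1 is left out of the counts and the median of the 9 genes above, since only 1 array measured it.

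Fosl2, which encodes Fra-2, was the Fos gene with nearly equal levels. Its brighter probe (chr5:32460076-32460135, plus strand) read 613 ± 61.3 and 575 ± 57.5, a log2 ratio of -0.09 ± 0.20. The dimmer probe (chr5:32455088-32455147) read 11.51 ± 1.60 and 9.06 ± 1.41, with a ratio of 0.16 ± 0.30. The probes thus disagreed in sign, within their errors, and the gene's value was 0.04. Its sign followed the processing, from -0.09 with the brightest probe to 0.25 with spike-in scaling.

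The sequences of the dim probes of Fosl2 and Junb are shown because each repeats a brighter probe of its gene at a much lower signal, in Fosl2 without and in Junb with a higher level after noise. Both are 60 bases long with 55% G and C, and are written in lower case throughout, with no part marked.
Fosl2, chr5:32455088-32455147 (mm9), plus strand: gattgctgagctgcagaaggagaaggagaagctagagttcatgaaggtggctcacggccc
Junb, chr8:87501881-87501940 (mm9), minus strand: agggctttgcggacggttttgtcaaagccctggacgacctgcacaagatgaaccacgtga

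Among the Jun genes, Junb was the most different between the arrays. JunB can pair with Fos proteins as Jun does, and is a weaker activator on many promoters. The brighter Junb probe (chr8:87500843-87500902, minus strand) had signals of 2477 ± 248 after noise and 1135 ± 113 at baseline, a log2 ratio of 0.94 ± 0.20. The probe printed above lies 1038 bases away and read 18.8 ± 2.18 and 9.10 ± 1.44, a ratio of 0.86 ± 0.28. Despite the gap in brightness both placed Junb higher after noise by a similar amount. The gene's value was 0.90, or 1.87-fold, just short of 2-fold. A remaining probe, 4208 bases from the brightest and designed on a cDNA clone, read 2.00 and 0.942, neither of them well above background. Junb was at 0.54 with the normexp background, at 0.63 without background subtraction and at 1.12 with spike-in scaling.

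Jun itself, the strongest activator of the Jun proteins and a substrate of JNK, had signals of 2408 ± 241 after noise and 1586 ± 159 at baseline (chr4:94716928-94716987, minus strand). The scaled levels were 7.62 and 5.70, a log2 ratio of 0.42 ± 0.20 or 1.34-fold. This lies inside the central 95% of all genes.

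Jund, which is expressed steadily in most tissues and is the least inducible of the Jun genes, was measured by 2 bright probes that lie 134 bases apart. The first (chr8:73224436-73224495, plus strand) read 5458 ± 546 and 4085 ± 409, a ratio of 0.23 ± 0.20. The second (chr8:73224302-73224361) read 7290 ± 729 and 4775 ± 478, a ratio of 0.43 ± 0.20. The gene's value of 0.33 was within the central 95% of genes, as was that of Jun, and the gap between Jun and Jund was smaller than the difference between the Jund probes.

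Maff, a small Maf gene that is itself stimulus-inducible, had the highest log2 ratio of the members measured on both arrays. Its probe (chr15:79189442-79189501, plus strand) read 240.0 ± 24.0 after noise and 72.4 ± 7.31 at baseline. The scaled levels were 0.760 and 0.260, making Maff 2.92-fold higher, with a log2 ratio of 1.55 ± 0.21. It ranked 33rd from the top among all 26528 measured genes. Maff was at least 2-fold higher under each of the 11 other processing choices, from 1.02 with the normexp background to 1.76 with spike-in scaling. In the plot of log2 ratios by probe it is the point farthest to the right.

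Mafk, a small Maf gene with broad steady expression, read 357 ± 35.8 after noise and 242 ± 24.3 at baseline (chr5:140278221-140278280, plus strand). Its log2 ratio of 0.38 ± 0.20, or 1.30-fold, lay inside the central 95% of genes. Batf3, a factor without an activation domain that pairs with Jun proteins and is known for the development of cross-presenting dendritic cells, read 64.5 ± 6.54 and 58.4 ± 5.94 (chr1:192932528-192932587, plus strand). After scaling its levels were 0.204 and 0.210, a log2 ratio of -0.04 ± 0.21. Batf3 was below 0 under all settings except spike-in scaling, where it stood at 0.17 and all genes had a median of 0.20.

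**Figure D2:**
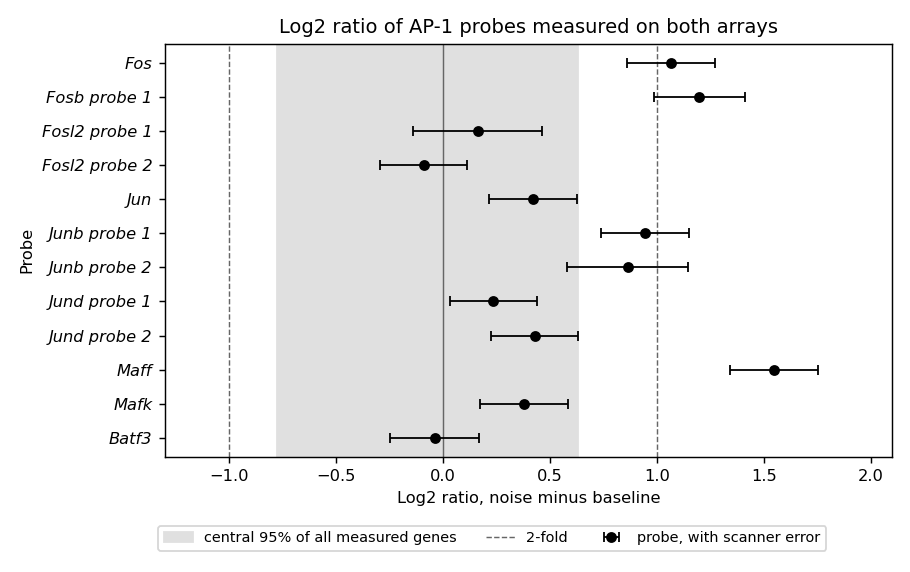
Log2 ratio (noise minus baseline) of the 12 member probes measured on both arrays, with bars for the scanner software's error, the grey band for the central 95% of all measured genes (-0.77 to 0.63) and dashed lines at 2-fold. The probes of Fos, Fosb, Junb and Maff lie to the right of the band, and those of the other 5 genes lie inside it.

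Ordered by log2 ratio, the members ran Maff (1.55), Fosb (1.20), Fos (1.07), Junb (0.90), Jun (0.42), Mafk (0.38), Jund (0.33), Fosl2 (0.04) and Batf3 (-0.04). Between neighbours only the step from Junb to Jun, of 0.48, exceeded 0.38, the standard deviation expected for the difference between single probes. The other neighbours in this order do not differ beyond that spread. The step depended on how background was treated. With the normexp background Junb was at 0.54, Jun at 0.44 and Fosb, then below Jun, at 0.43. Without background subtraction Junb was at 0.63 and Jun at 0.44, a gap within the spread. With the brightest probe of each gene, Junb was at 0.94 and Jun at 0.42, a gap beyond the spread. The same values were found when probes needed a signal of at least 50 on both arrays. As reported, the first 4 were also the only members above the central 95% of all genes. In the reported order each of the 3 protein families had a member on both sides of the step. These were Fos and Fosb against Fosl2, Junb against Jun and Jund, and Maff against Mafk.

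**Figure D3:**
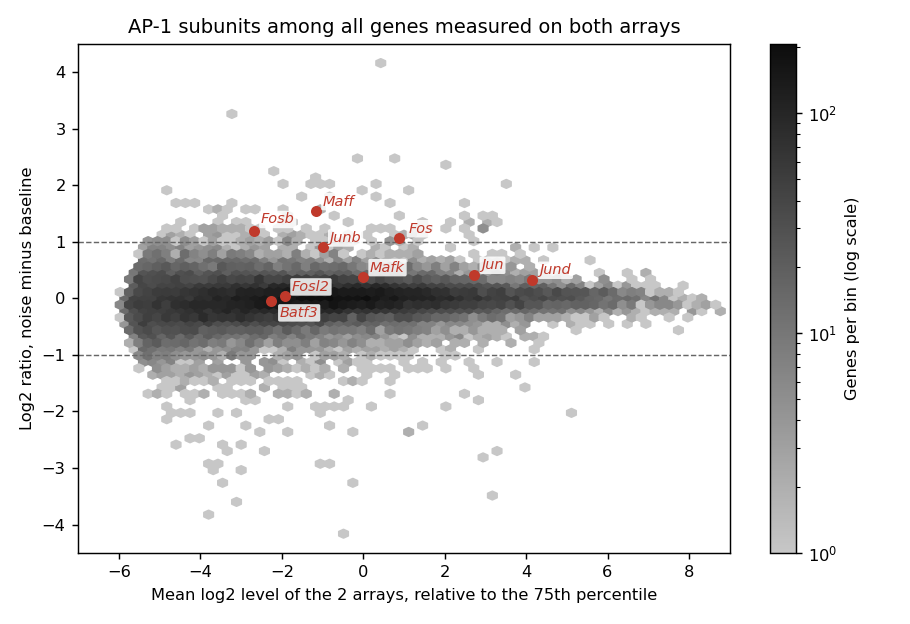
Log2 ratio against the mean log2 level of the 2 arrays, relative to the 75th percentile, for all 26528 measured genes (grey hexagons, shaded by the number of genes on a log scale) and for the 9 measured members (red); dashed lines mark 2-fold. Maff, Fosb, Fos and Junb lie at the upper edge of the cloud and at different mean levels.

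The 3 genes with several probes whose ratio lay nearest to that of Fos were Wnk4 (1.07), a kinase that regulates salt transport, Traip (1.04), a ubiquitin ligase, and Per2 (0.99), a circadian clock repressor. Likeness here is the difference in log2 ratio over 2 arrays. The probes of Wnk4 ran from 0.82 to 1.32 and those of Per2 from 0.31 to 1.68.

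Other basic leucine zipper genes, which can pair with or compete with the members, were closer to the middle of all genes. Of 23, all measured, 15 had a ratio above 0, 1 was at least 2-fold higher and none at least 2-fold lower, with a median of 0.05. The gene past 2-fold was Atf3, a stress-induced repressor that pairs with Jun proteins, with signals of 221 after noise and 93.5 at baseline and a log2 ratio of 1.06 (0.75 with the normexp background). Next by size came Crem (0.56), a cyclic AMP-responsive factor, Cebpd (0.55), a factor of the acute-phase response, Nfe2l3 (-0.53) and Nrl (0.52), the latter with a signal of 7.74 against 4.77, little above background. Nrl was at -0.08 with the normexp background, and the 3 probes of Nfe2l3 ran from -0.62 to 0.09.

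Kinases of the MAP kinase cascades and the factors through which they switch on the Fos and Jun genes differed little in transcript level. Of 27 genes, 12 were above 0, none was past 2-fold in either direction, and the median was -0.04, which became 0.17 with spike-in scaling, close to the median of all genes there. The largest values were -0.30 for Elk3 and 0.24 for Elk4, partners of serum response factor, 0.27 for Map2k4, a kinase upstream of JNK and p38, and -0.24 for Mapk8, which encodes JNK1. Probes of 1 gene could disagree in sign: the 4 measured for Elk4 ran from -0.06 to 1.18, and the 4 for Mapk8 from -0.72 to 0.59. All these values are transcript levels, and phosphorylation was not measured.

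Genes that act on the duration of the AP-1 response, namely RNA-binding proteins that destabilise or, as HuR (Elavl1), stabilise its messenger RNAs, ubiquitin ligases and MAP kinase phosphatases, were above 0 in 15 of 18 cases. Their median was 0.20, and none was past 2-fold. The highest was Zfp36, which encodes the messenger RNA decay factor tristetraprolin, at 0.73 with signals of 658 and 349. The phosphatase genes Dusp1 (0.64; signals of 2803 and 1589), Dusp6 (0.59) and Dusp2 (0.60) followed.

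Of 31 genes listed as AP-1 targets, 28 were measured on both arrays, and Areg, Ereg and Mmp10 were well above background on neither. Of the 28, 18 had a ratio above 0, 3 were at least 2-fold higher and none 2-fold lower, with a median of 0.20. Tnfrsf12a, the TWEAK receptor, had signals of 1320 after noise and 216 at baseline (log2 ratio 2.43), and Ccl2, a monocyte chemokine, 367 and 75.6 (2.09). Il6, an inflammatory cytokine, was at 1.65. It was dim, and its ratio was 0.25 with the normexp background. The list was uneven: Mmp13, a collagenase often used as a model AP-1 target, was at 0.78 with signals of 1110 and 569, while Vegfa, an angiogenic factor, was at -0.54. Its 4 probes ran from -1.08 to 0.28. The cytokine genes Tgfb1 and Il11 were at 0.57 and 0.54, and Il11, with signals of 17.9 and 10.9, was at -0.0033 with the normexp background.

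Genes with Maf recognition elements, on which small Maf proteins act with Nrf2 or Bach1, had a median of 0.12, with 10 of 15 above 0. Hmox1, the inducible heme oxygenase that Bach1 with small Maf proteins represses, was the only one past 2-fold, at 4.15 (2.62 with its dim probe averaged in). It was followed by Srxn1 (0.49), Gsr (0.43), Gclm (-0.29) and Slc7a11 (0.27), all of glutathione or peroxide metabolism. The lists were compiled with earlier results of these data known, so their counts are descriptions and support no direction.

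**Figure D4:**
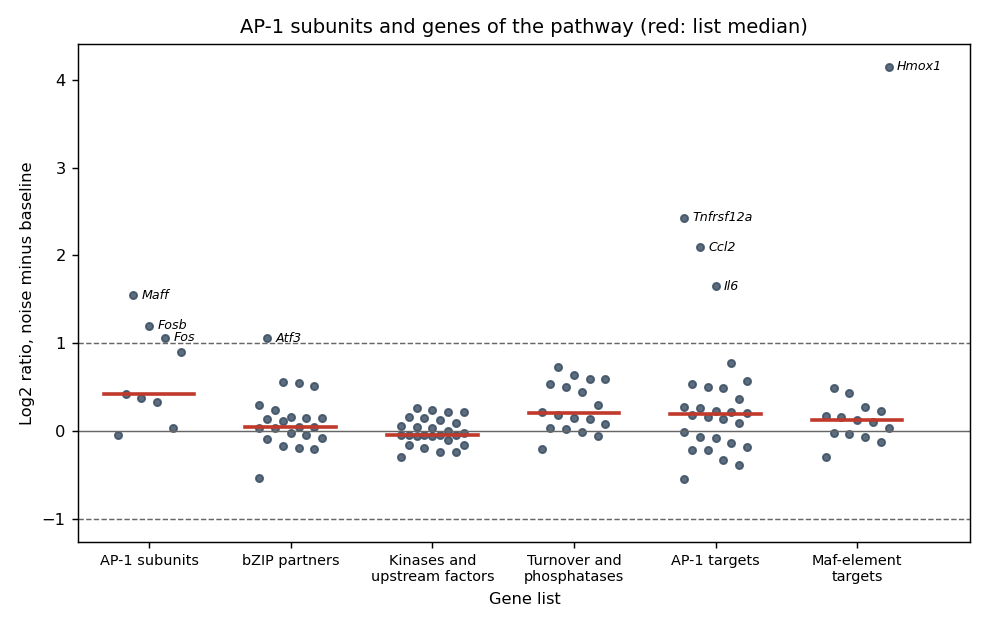
Log2 ratio (noise minus baseline) of each gene measured on both arrays (points), in 6 lists, with the list median (red line) and dashed lines at 2-fold; names are given for genes at least 2-fold higher. The median lies at 0.42 for the AP-1 subunits and between -0.04 and 0.20 for the other 5 lists.

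Several groups of marker genes differed between the samples alongside the members. Markers of tissues outside the inner ear were lower after noise: none of 16 skeletal muscle genes was above 0 (median -0.81, summed scaled level 61.8 after noise and 90.2 at baseline), and 2 of 14 adipocyte genes were (median -1.02, 43.5 and 117). Pvalb alone made up 42.5 and 54.2 of the muscle sums, so these sums mostly follow 1 gene. Of 6 measured pituitary genes none was above 0 (median -2.07, 5.49 and 39.1), with Tshb and Fshb well above background at baseline alone and Pou1f1 on neither array. Central glia genes (1 of 11 above 0, median -0.79, 48.4 and 84.4, of which Aldoc made up 31.7 and 59.3) were lower too. Of 10 measured central neuron genes 8 were below 0 (median -1.79, 3.57 and 12.6), Slc6a5 and Neurod6 were well above background at baseline alone, and the other two, Pcp2 (1.60) and Npy (1.003), were at least 2-fold higher after noise. B cell genes were higher in 10 of 10 (median 0.57, 35.9 and 24.7), and neutrophil genes had a median of 0.22 with nearly equal summed levels of 946 and 951. Macrophage (-0.02), endothelial (0.08) and osteoblast (0.06) medians were near that of all genes. The cochlear list had a median of 0.25 with 14 of 20 above 0, and 1 gene, Pou3f4, was at least 2-fold lower (-1.22). Of 15 measured circadian clock genes 12 were above 0 (median 0.77, 109 and 51.6), and 5 were at least 2-fold higher after noise. Clock genes did not all go 1 way: Arntl was at least 2-fold lower (-1.70), and Npas2 was well above background at baseline alone. Glucocorticoid-induced genes were above 0 in 13 of 15 cases (median 0.52, 338 and 263). The part of any of these groups in the members' ratios was not tested. In bulk tissue, fewer cells of a type and less RNA per cell cannot be told apart.

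**Figure D5:**
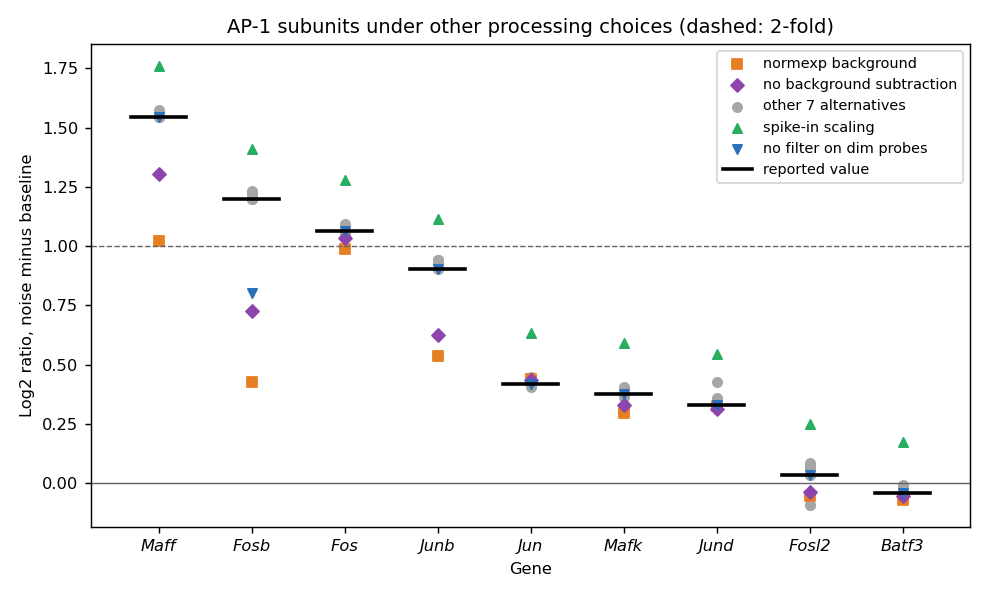
Log2 ratio of each of the 9 measured members (horizontal axis) as reported (black line) and under the 11 other processing choices (symbols), with a dashed line at 2-fold. Maff stays above 2-fold under each, Fos drops just below it with the normexp background, and Fosb spans the widest range.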

How the data were processed

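Total RNA of 2 cochlear samples (noise, baseline; 1 array each) was measured. Spot intensity on a linear scale is what the authors' deposited scanner files give, made with Agilent Feature Extraction 11.5.1.1 per the file headers, which subtracted background; the processed signal and its error were used. A further table, deposited by the authors, gives log2 values per array. Set against the scanner values, each of its columns was log2 of the same array's signal scaled to the 75th percentile, with medians of -2.81 (noise) and -2.79 (baseline), in the same direction and without centring per gene.

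Control spots and spots with outlier flags (77 and 58 non-control spots) were left out. Spots of a probe were averaged in log2, and each array's 75th percentile was subtracted. The gene's value was the median, over its probes, of log2 noise minus log2 baseline, with probes called well above background on both arrays. For a gene measured on 1 array, an at-least fold divided its level by the dim probe's level on the other array or, if greater, by the lowest level there that was well above background. The number of arrays limits the precision, and no p-value was computed.

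Named are all members and probes, the list genes past 2-fold, up to 4 others per list with the largest absolute ratio, and the 3 genes nearest to Fos. Coch, Otoa, Pcp2, Npy and Elavl1 were named after their values were seen. So were Arntl, Pvalb, Aldoc, Slc26a5, Pou3f4 and marker genes well above background on 1 array or neither. Members and lists were chosen with earlier results of these data known, and the clock and glucocorticoid lists were written after the files were read. A gene first placed among the AP-1 targets is not reported here and is left out of that list's counts and median. Probe coordinates are mm9, per the file headers; an annotation of that build was not used here, so exon and untranslated positions are not given. RefSeq (GRCm38.p6) held the symbols of all 10 members and the accessions of 14 of 15 probes. The 11 alternatives concerned background, scaling, filter, probe summary and source of values. Python 3.11.15, R 4.3.3 and limma 3.58.1 (normexp, offset 50) were used, and the gene step was tested on simulated data.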

Additional observations from a re-analysis of the deposited data

How the results depend on the processing

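The count of members at least 2-fold higher was 3 as reported, 1 with the normexp background, 2 without background subtraction or with the stricter filter (signal of at least 50 on both arrays), and 4 with spike-in scaling. It was 3 under the other 7 choices, of which keeping dim probes gave Maff, Fos and Fosl1 (2.76) rather than Fosb. No member was 2-fold lower under any of the 11, and the members' median stayed between 0.40 and 0.63. Over all genes, 162 were higher and 332 lower as reported. These counts were 56 and 74 with the normexp background, 70 and 120 without background subtraction, 340 and 189 with spike-in scaling, 672 and 1296 when dim probes were kept, and 83 and 119 with the stricter filter, which tests fewer genes. Spike-in scaling moved the log2 ratios of all genes by the same amount, so that their median went from -0.01 to 0.20. The normexp setting adds an offset of 50 to each signal, which makes the ratios of dim probes smaller. Without subtraction, the background stays in both signals. Beyond this, the cause of the shifts was not tested. Of 98 values of the 9 members, 92 moved by less than the spread between probes (0.27) and 6 by more. The latter were Maff at 1.02 (normexp), Fosb at 0.43 (normexp), 0.73 (no subtraction) and 0.80 (no filter), and Junb at 0.54 (normexp) and 0.63 (no subtraction). Fosb could not be measured under the stricter filter. The 8 spike-in probes differed by -0.19 to 0.40 in log2 before scaling, so they fix the offset loosely. Signal over background limits Fosl1, the dim probes of Fosb, Fosl2 and Junb, Nrl and Il6. No paired analysis was possible because there was 1 array per group, and no replicate could be left out.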
